A study of Mus musculus with 11 samples.

Results

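The cell cycle and DNA replication genes described here are 42 genes, of 49671 in the count table, that were chosen by name for their roles in cell division. They form 3 groups by role: 9 G1 cyclins and kinases with the factor E2f1, 14 replication genes, and 19 mitotic genes. All 42 were matched to the counts by the symbol paired with their Ensembl identifier, and all 42 passed the filter on low counts. The libraries, 11 in number, came from adrenal cells of male Nes-GFP mice sorted by fluorescence. In this strain green fluorescent protein (GFP) reports the intermediate filament gene Nestin, a marker of progenitor cells. The design text describes sorted Nestin-positive progenitors of the adrenal cortex, which makes steroid hormones, and medulla, which makes catecholamines, and the title names Schwann cell precursors as a source of cells in both. Adrenals of 6 mice were separated into cortex and medulla, pooled as 3 groups of 2 mice, and sorted by GFP at 180 to 300 cells per tube. All 4 groups carry the same reporter strain and no other allele or treatment is named in the labels.

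The cortical GFP-positive group (n = 3) and the cortical GFP-negative group (n = 3) each held libraries 1 and 2 from mice of about 3.5 months and library 3 from mice of about 2.5 months. In the medullary GFP-positive group (n = 3), library 1 came from the older mice and libraries 2 and 3 from the younger. Both libraries of the medullary GFP-negative group (n = 2) came from the older mice. The labels tie no library to a pool or a mouse, so libraries may share animals, within a group and across gates. If each of the 3 pools was of 1 age, at least 1 group held 2 libraries of the same pool. These would be medullary GFP-positive libraries 2 and 3, or else libraries 1 and 2 of each of the other groups. The p-values therefore measure only the spread between these libraries, part of which may be technical. In such bulk samples, fewer dividing cells and less RNA of these genes per cell cannot be told apart. Values in each list below follow the order of the library numbers.

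Cells commit to division in G1, when D-type cyclins with Cdk4 or Cdk6, and then E-type cyclins with Cdk2, inactivate the retinoblastoma family and free E2F factors. E2F factors drive genes of DNA synthesis: Cdc6 and Cdt1 load the Mcm helicase on origins, Dbf4 activates the kinase that fires them, Gins2 belongs to the active helicase, Pcna clamps polymerases to DNA, and Rrm1, Rrm2 and Tyms make nucleotides. Genes of G2 and mitosis, such as Cdk1 and its cyclins, are held down in resting cells by MuvB complexes at a promoter element named CHR and are switched on later in the cycle. In the adult adrenal cortex, new steroid-producing cells arise near the capsule, and proliferation is known to lie mainly in the outer zones. Adult chromaffin cells, the catecholamine-producing cells of the medulla, divide rarely.

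The promoters of the mitotic and replication genes differed in the elements they held. Windows from 250 bases before to 50 after the RefSeq start (GRCm38.p6) were found for 34 of the 42 genes, with 36 promoters in all. The CHR letters TTTGAA, read on both strands, stood in 12 of 16 mitotic promoters (75.0%) and in 2 of 13 replication promoters (15.4%), against 17.9% of all 32851 promoters of that length. No CHR letters were found in the 7 promoters of G1 genes. The letters CCAAT stood in 15 of 16 mitotic promoters (93.8%), in 9 of 13 replication promoters (69.2%) and in 2 of 7 G1 promoters, against 37.4% of all promoters. The E2F letters, read on both strands, were TTCCCGC with its variant TTCGCGC, as well as the form TTGCCGC with its variant TTGGCGC. They stood in 9 of 13 replication promoters (69.2%), in 3 of 16 mitotic promoters and in 1 of 7 G1 promoters, against 9.57% of all promoters. An E2F match on the reverse strand can overlap CCAAT letters. A match describes these letters only. Stretches of 150 bases are shown for 3 mitotic genes with CHR letters and for 2 replication genes with E2F letters, chosen after the values were seen because they carry the contrast between the groups. Capitals mark CHR, CCAAT and E2F letters on either strand, and each stretch reads 5′ to 3′ along the gene's own strand. Cdk1 (chr10:69352939-69353088, minus strand), Top2a (chr11:99024190-99024339, minus strand), Mki67 (chr7:135716380-135716529, minus strand), Mcm6 (chr1:128359706-128359855, minus strand) and Rrm1 (chr7:102441545-102441694, plus strand) read as follows.
Cdk1: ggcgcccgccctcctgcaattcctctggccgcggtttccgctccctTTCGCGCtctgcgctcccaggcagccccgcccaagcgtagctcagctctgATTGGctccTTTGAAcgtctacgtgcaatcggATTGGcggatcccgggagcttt
Top2a: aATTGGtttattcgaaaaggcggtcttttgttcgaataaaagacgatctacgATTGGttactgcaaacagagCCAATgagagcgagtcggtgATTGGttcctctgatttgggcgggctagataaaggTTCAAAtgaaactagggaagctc
Mki67: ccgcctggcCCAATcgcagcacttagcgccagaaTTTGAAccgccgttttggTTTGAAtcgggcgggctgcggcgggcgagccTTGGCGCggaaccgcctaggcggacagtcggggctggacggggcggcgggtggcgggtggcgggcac
Mcm6: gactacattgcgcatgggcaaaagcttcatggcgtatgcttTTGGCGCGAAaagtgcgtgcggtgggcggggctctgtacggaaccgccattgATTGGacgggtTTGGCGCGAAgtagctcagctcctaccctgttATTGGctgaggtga
Rrm1: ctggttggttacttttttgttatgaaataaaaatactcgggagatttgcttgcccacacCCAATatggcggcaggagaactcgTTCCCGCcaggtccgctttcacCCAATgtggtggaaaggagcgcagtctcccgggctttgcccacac
Cdk1 and Mki67 each carry CHR, CCAAT and E2F letters in the stretch shown, Top2a carries 4 CCAAT matches and 1 CHR match, and Mcm6 carries 4 E2F matches that overlap in pairs on opposite strands.

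Total counts per library ranged from 18500690 to 29204212, and the floor of 3 counts corresponded to 0.104 to 0.157 CPM, the counts scaled to a common library size after TMM normalization. Nes itself was at 35.2 to 50.8 CPM in cortical GFP-positive against 4.59 to 7.44 CPM in GFP-negative libraries, and at 69.2 to 178 against 16.1 to 26.1 CPM in the medulla. Schwann and glial markers (10 genes) summed to 219 to 313 CPM in cortical GFP-positive and 2159 to 5114 CPM in medullary GFP-positive libraries, against 4.17 to 25.2 CPM in GFP-negative libraries, where Sox10 and Foxd3 were at 0 in the medulla, and 8 and 9 of 10 were called higher. Chromaffin markers (10 genes) summed to 5877 to 12131 CPM in the medulla and to at most 168 CPM in the cortex, with 3 of 10 called higher in cortical GFP-positive cells. Cortical GFP-positive libraries 1, 2 and 3 were at 168, 7.30 and 16.6 CPM, so library 1 carried most of that summed level. Steroidogenic markers (9 genes) were higher in GFP-positive libraries without overlap, at 64297 to 73840 against 35739 to 40409 CPM in the cortex and at 23733 to 42132 against 8664 to 16222 CPM in the medulla, with 4 and 6 of 9 called higher and 1 lower in each. Macrophage markers (15 genes, none at 0 in any group) summed to 76.3 to 502 CPM in cortical GFP-positive against 5792 to 8709 CPM in GFP-negative libraries, and to 605 to 1865 against 29864 to 31102 CPM in the medulla. All 15 were called lower in GFP-positive cells of each tissue. Zona glomerulosa markers (7 genes, none at 0 in any group) summed to 1278 to 1419 against 5806 to 7216 CPM in the cortex and to 134 to 207 against 2129 to 3535 CPM in the medulla, with 6 and 7 of 7 called lower. Pericyte and smooth muscle markers (9 genes) summed to 62.3 to 235 CPM in cortical GFP-positive against 2.05 to 6.24 CPM in GFP-negative libraries, with 5 called higher, and overlapped in the medulla, with 2 called higher. Erythroid markers summed to 811 CPM in cortical GFP-positive library 1 and to at most 1.86 CPM in every other library.

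**Figure D1:**
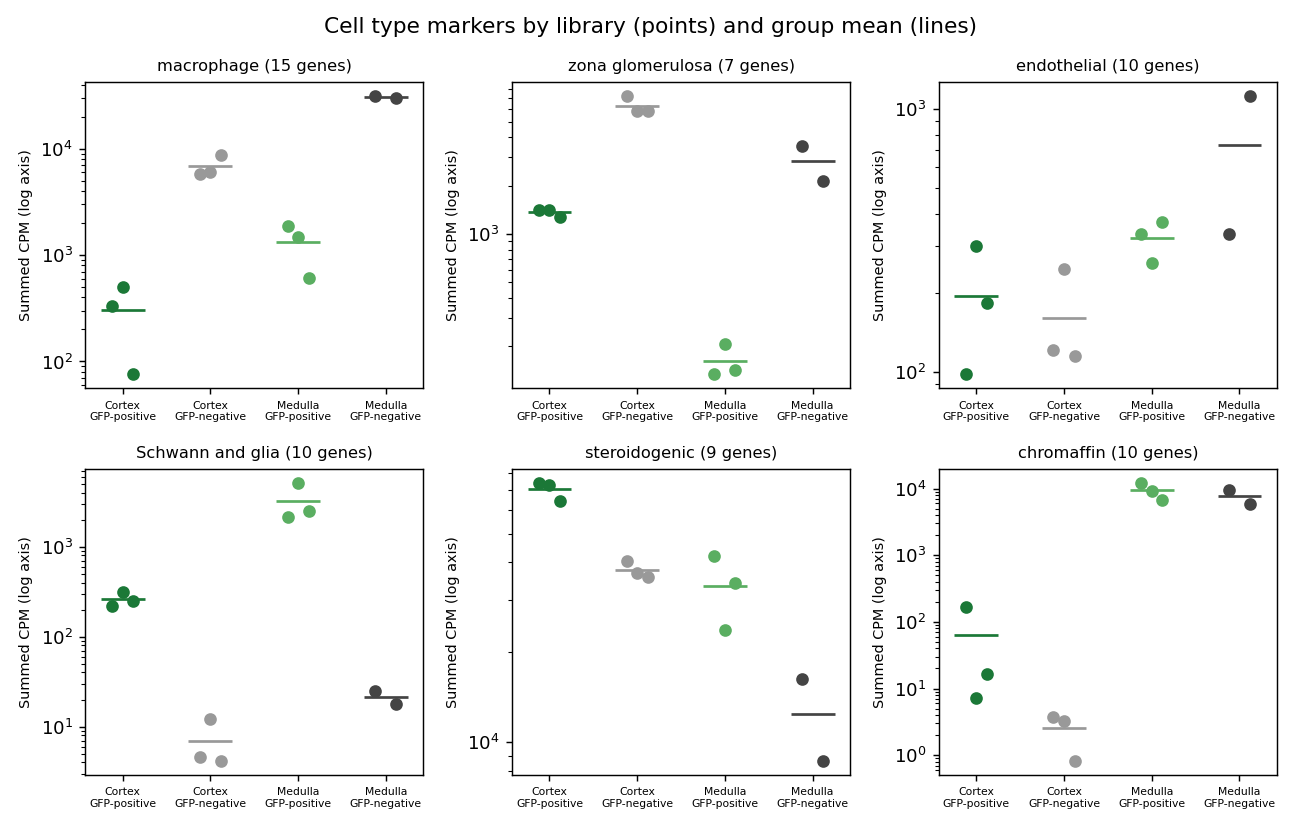
Summed CPM (log axis) of 6 lists of cell type markers, with 1 point per library and a line at the mean of each of the 4 groups. Macrophage and zona glomerulosa sums are lower in GFP-positive than in GFP-negative libraries of both tissues, with macrophage sums of up to 31102 CPM in the medullary GFP-negative libraries.

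In the cortex, cell cycle genes of all 3 role groups were lower in the GFP-positive gate. Of the 42, 15 were called lower and 0 higher by edgeR's quasi-likelihood test at an adjusted p under 0.05, against 7.59% of all 20893 genes called lower and 7.14% called higher. No member was higher at an unadjusted p under 0.05 either, and DESeq2 and limma voom also called 0 higher, with 25 and 17 lower. These tools called 22.2% and 16% of all genes in either direction, against 14.7% by edgeR. The 15 were 4 G1 genes (Ccnd1, Ccnd2, Ccne1 and Cdk2), 7 replication genes (Mcm2, Mcm3, Mcm4, Mcm6, Rrm1, Rrm2 and Cdt1) and 4 mitotic genes (Cdk1, Ccna2, Aurkb and Birc5). The estimate was below 0 for 42 of 42 members, with a median log2 difference of -1.515 against 0.03 over all genes tested. In 25 of the 42 every GFP-positive library lay below every GFP-negative library, as in 19.4% of all genes. Ccnd2, Cdk1, Mcm3, Mcm4 and Mcm6 kept their call whichever of the 11 libraries was left out. The other 10 were each lost without at least 1 library, at edgeR adjusted p of up to 0.119. The number called moved to 6 without GFP-negative library 2, 7 without GFP-positive library 3, 8 without GFP-positive library 2 and 8 without GFP-negative library 1. In these fits 10.4%, 11%, 10.6% and 10% of all genes were called in either direction, against 14.7% with all libraries. Macrophage and zona glomerulosa markers fell and Schwann, steroidogenic and pericyte markers rose with the same gate, as given above, and their part in the result was not tested.

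In the medulla 21 of the 42 genes were called lower and 0 higher in GFP-positive cells, against 11.1% of all genes called lower and 10.2% called higher. No member was higher at an unadjusted p under 0.05, and DESeq2 and limma voom called 0 higher, with 26 and 25 lower. Of all genes these tools called 28.8% and 25.9% in either direction, against 21.4% by edgeR. The 21 were 3 G1 genes (Ccnd2, Cdk6 and Cdk2), 8 replication genes (Mcm2, Mcm3, Mcm5, Mcm6, Mcm7, Dbf4, Cdt1 and Gins2) and 10 mitotic genes (Mki67, Cdk1, Ccnb1, Aurkb, Birc5, Cenpa, Cenpf, Kif11, Cdc20 and Ube2c). Of the 42 estimates 39 were below 0, with a median log2 difference of -2.07 against 0.09 over all genes. Groups did not overlap in 33 members, 19 of 19 mitotic genes among them, as in 22.5% of all genes. Aurkb, Cdk1, Cdt1, Gins2, Mcm2, Mcm3 and Ube2c kept their call whichever library was left out. The other 14 were each lost without at least 1 library, at edgeR adjusted p of up to 0.321. Leaving out medullary GFP-negative library 1 left that group with 1 library, assumed to vary like the other groups. The estimate was then below 0 for 36 of the 42, with a median log2 difference of -2.12 against 0.18 over all genes. Scaling by total counts alone shifted the median log2 difference of all genes in the medulla to 0.15, and the 21 calls stood at 21. Here too macrophage and zona glomerulosa markers fell and Schwann and steroidogenic markers rose with the gate, and their part was not tested.

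The authors' deposited tables of comparisons list 3 of the 42 as lower at their adjusted p under 0.05 in cortical GFP-positive cells (Mcm6, Cdk1 and Aurkb), where 2.03% of the genes with an adjusted p were lower. In the medulla the authors' deposited table lists 10 members as lower, against 3.51% of genes: Mcm2, Mcm3, Mcm5, Cdt1, Cdk1, Aurkb, Cenpa, Kif11, Cdc20 and Ube2c. None of the 42 is listed as higher in either of these deposited tables.

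**Figure D2:**
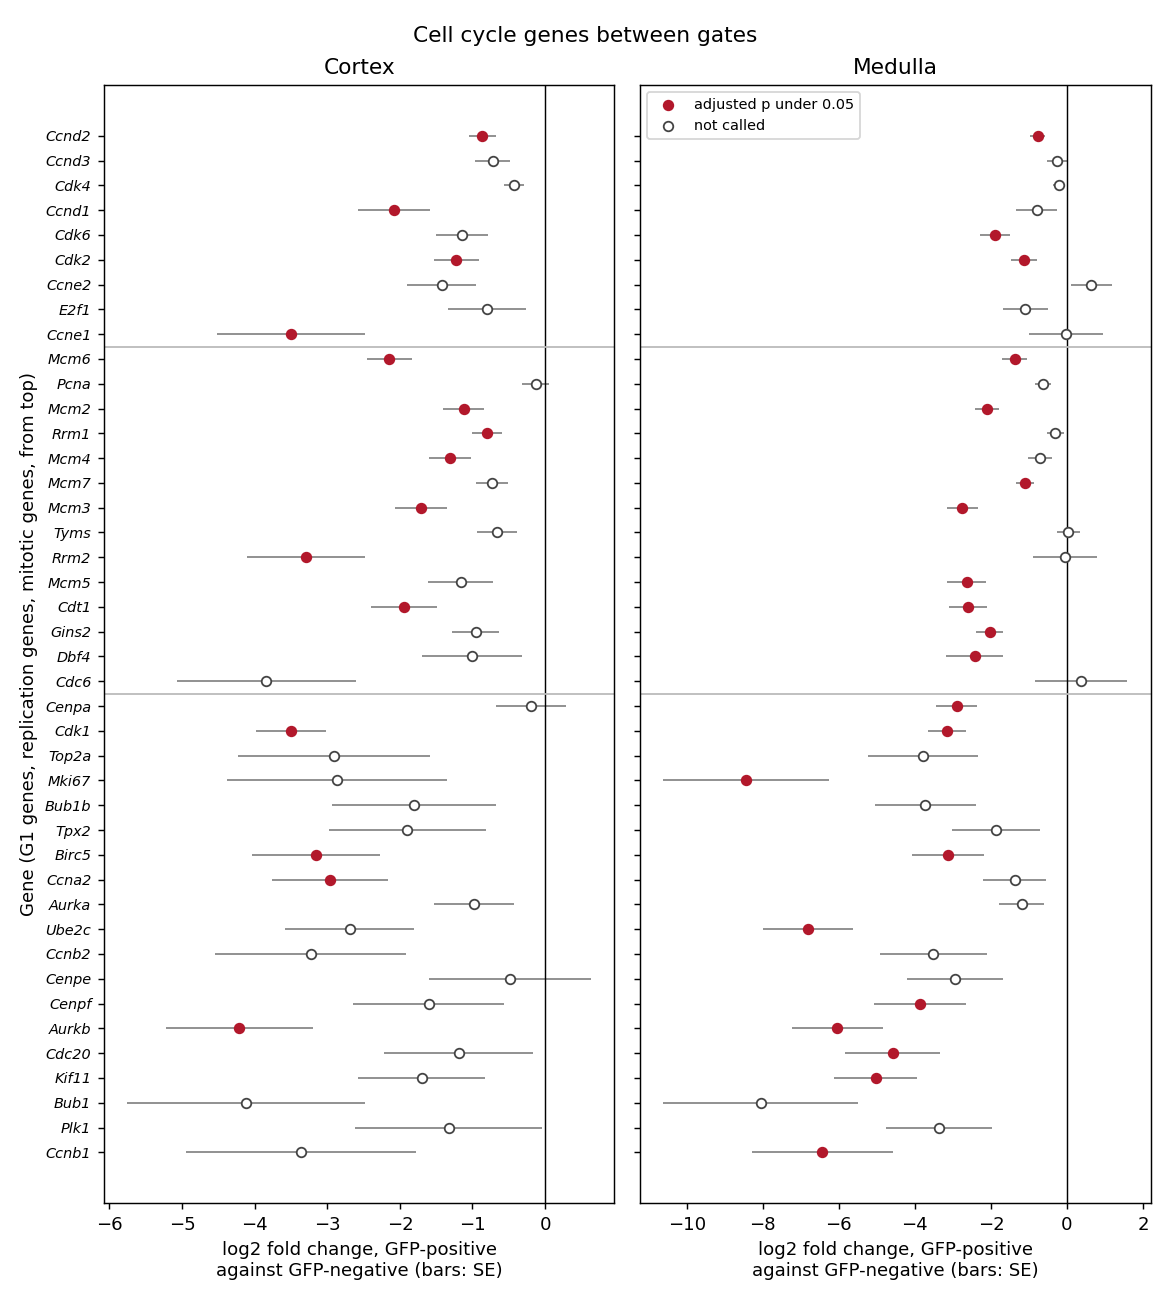
Fitted log2 fold change of GFP-positive against GFP-negative cells for each of the 42 genes in the cortex (left) and medulla (right), with bars of 1 SE and filled points where the edgeR adjusted p was under 0.05. Within each role group genes are ordered by mean CPM, and 42 of 42 cortical and 39 of 42 medullary estimates lie left of 0; the horizontal axes differ in range.

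Ccnd2 and Cdk4 had the highest levels per kilobase of the 42 genes in all 4 groups. Per kilobase of the deposited gene length, Ccnd2 stood at 66.2 CPM in cortical GFP-positive and 121 CPM in cortical GFP-negative cells and was the highest there. In the medulla Cdk4 was the highest per kilobase, at 47.8 and 55.5 CPM in GFP-positive and GFP-negative cells. The median log2 difference between gates over the 9 genes was -1.14 in the cortex and -0.77 in the medulla.

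Ccnd2, a D-type cyclin (ENSMUSG00000000184, chromosome 6, 127125162 to 127152193, mm10), was at 501, 711 and 658 CPM in cortical GFP-positive libraries and at 1201, 1169.8 and 1039 CPM in GFP-negative ones. Its medullary levels were 258, 368 and 268 CPM against 577 and 438 CPM. The gates did not overlap in either tissue, with log2 differences of -0.87 (edgeR adjusted p = 0.0113, SE 0.18) in the cortex and -0.77 (edgeR adjusted p = 0.0220, SE 0.20) in the medulla. The medullary call was lost without GFP-positive library 1 or 3 or GFP-negative library 1, with edgeR adjusted p up to 0.153. Ccnd1, the D-type cyclin that mitogens induce, was at 19.4, 45.4 and 35.2 CPM against 120.5, 165 and 139 CPM in the cortex. Its groups were apart there, at a log2 difference of -2.09 (edgeR adjusted p = 0.0195, SE 0.50). In medullary cells Ccnd1 was at 37.6, 80.8 and 16.6 CPM against 90.6 and 66.4 CPM, and GFP-positive library 2 lay between both GFP-negative libraries (log2 difference -0.80 (edgeR adjusted p = 0.322, SE 0.53)). Ccnd3, the remaining D-type cyclin, was at 256, 192 and 209 CPM against 366, 368 and 350.2 CPM in the cortex, where the groups were apart but the call was not made (log2 difference -0.72 (edgeR adjusted p = 0.0713, SE 0.24)). Its medullary values of 134, 192 and 106 CPM and 217 and 128 CPM overlapped. The kinase Cdk4, a partner of these cyclins, was at 186, 179 and 183 CPM against 243, 263 and 233 CPM in the cortex. Its spread was small, the groups were apart, and the log2 difference was -0.43 (edgeR adjusted p = 0.0610, SE 0.14). The medullary values of Cdk4, 125, 177 and 164 CPM against 192 and 169 CPM, overlapped.

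Cdk6, the other kinase that pairs with D-type cyclins, was at 9.16, 8.50 and 4.59 CPM against 14.2, 15.1 and 19.8 CPM in the cortex, with groups apart and a log2 difference of -1.14 (edgeR adjusted p = 0.0586, SE 0.36). Medullary Cdk6 was at 14.03, 16.7 and 7.41 CPM against 36.6 and 58.0 CPM, a log2 difference of -1.89 (edgeR adjusted p = 0.00650, SE 0.39). It was lower in every medullary GFP-positive library, and the call was lost only without GFP-negative library 2 (edgeR adjusted p = 0.0608). Cdk2, the kinase of the G1 to S transition, was at 9.43, 13.6 and 9.59 CPM against 23.1, 31.5 and 21.5 CPM in the cortex and differed by -1.22 (edgeR adjusted p = 0.0278, SE 0.32) on the log2 scale. In the medulla Cdk2 was at 9.08, 15.0 and 8.50 CPM against 30.6 and 16.8 CPM, a log2 difference of -1.13 (edgeR adjusted p = 0.0410, SE 0.34). Its groups were apart in both tissues, but the medullary adjusted p rose to 0.321 without GFP-negative library 1. Ccne1, an E-type cyclin that binds Cdk2, was near the floor in cortical GFP-positive cells, at 0.578, 0.386 and 0.0900 CPM against 4.81, 4.84 and 2.40 CPM, a log2 difference of -3.49 (edgeR adjusted p = 0.0447, SE 1.02). Its medullary values were spread widely within each gate, at 15.8, 1.84 and 5.53 CPM against 14.02 and 1.70 CPM, and the log2 difference of -0.03 (edgeR adjusted p = 0.991, SE 0.98) changed sign with total-count scaling. Ccne2, the second E-type cyclin, was at 3.16, 3.78 and 6.39 CPM against 19.3, 10.2 and 6.34 CPM in the cortex, where GFP-positive library 3 lay just above GFP-negative library 3. In the medulla Ccne2 was at 3.77, 6.25 and 2.97 CPM against 3.21 and 2.35 CPM, and the gates overlapped. E2f1 lay between 1.70 and 10.8 CPM over all libraries and was called in no comparison by edgeR with all 11 libraries.

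The Mcm genes, which encode the 6 subunits of the replicative helicase, were lower in GFP-positive cells of both tissues. By the test 4 of 6 were lower in the cortex and 5 of 6 in the medulla, against 7.59% and 11.1% of all genes. Mcm6 (ENSMUSG00000026355, chromosome 1, 128331590 to 128359664, mm10), whose promoter is shown above, was at 35.3, 19.2 and 22.7 CPM in cortical GFP-positive libraries against 134, 100.2 and 107 CPM in GFP-negative ones. Medullary Mcm6 was at 15.8, 28.5 and 21.7 CPM against 73.5 and 41.0 CPM. All GFP-positive libraries lay below all GFP-negative libraries of their tissue, at log2 differences of -2.14 (edgeR adjusted p = 0.00168, SE 0.31) and -1.38 (edgeR adjusted p = 0.0147, SE 0.33). The medullary call ended without GFP-negative library 1 (edgeR adjusted p = 0.142). Mcm3 was at 9.21, 8.33 and 19.3 CPM against 32.6, 43.6 and 44.1 CPM in the cortex and at 7.63, 3.72 and 5.43 CPM against 42.2 and 32.7 CPM in the medulla. It did not overlap in either tissue, with log2 differences of -1.71 (edgeR adjusted p = 0.0106, SE 0.36) and -2.75 (edgeR adjusted p = 0.00104, SE 0.40). Mcm2 was nearly constant within the cortical gates, at 39.0, 38.9 and 43.3 CPM against 84.0, 90.4 and 89.6 CPM (log2 difference -1.12 (edgeR adjusted p = 0.0247, SE 0.28)). In medullary libraries Mcm2 was at 9.34, 4.79 and 13.5 CPM against 41.0 and 38.0 CPM, a log2 difference of -2.11 (edgeR adjusted p = 0.00126, SE 0.32). The gates were apart in both tissues, and the cortical call of Mcm2 ended without any 1 of the 6 cortical libraries, at edgeR adjusted p of up to 0.0824.

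Mcm4 was at 21.7, 10.7 and 20.3 CPM against 33.2, 55.1 and 42.1 CPM in the cortex, a log2 difference of -1.31 (edgeR adjusted p = 0.0127, SE 0.28). Its medullary values, 21.7, 28.7 and 20.6 CPM against 39.1 and 37.9 CPM, were also apart, but at -0.70 (edgeR adjusted p = 0.138, SE 0.31) the difference was not called. Mcm5 showed the reverse order of calls. Cortical Mcm5 was at 11.5, 6.44 and 5.04 CPM against 18.5, 14.9 and 18.0 CPM, a log2 difference of -1.16 (edgeR adjusted p = 0.113, SE 0.45). Medullary Mcm5 was at 2.58, 2.05 and 1.20 CPM against 18.1 and 6.21 CPM, a log2 difference of -2.64 (edgeR adjusted p = 0.00473, SE 0.51) that was lost without GFP-negative library 1 (edgeR adjusted p = 0.0531). Its groups did not overlap in either tissue. Mcm7 was at 19.3, 20.3 and 19.8 CPM against 28.5, 34.3 and 35.97 CPM in the cortex, where the tight groups were apart but the adjusted p just missed the threshold (-0.73 (edgeR adjusted p = 0.0519, SE 0.22) on the log2 scale). Medullary Mcm7 was at 18.7, 12.6 and 11.3 CPM against 35.9 and 25.2 CPM, a log2 difference of -1.10 (edgeR adjusted p = 0.00975, SE 0.24), and was not called without GFP-negative library 1 (edgeR adjusted p = 0.0871). The interaction of gate and tissue was called for none of the 6 Mcm genes.

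Of 4 genes that load or activate the helicase, 1 was called lower in the cortex and 3 in the medulla, against 7.59% and 11.1% of all genes. Cdt1, a loading factor, was at 2.05, 1.16 and 4.28 CPM against 7.95, 13.1 and 7.75 CPM in the cortex, a log2 difference of -1.94 (edgeR adjusted p = 0.0179, SE 0.45). In medullary cells it was at 2.89, 2.05 and 2.56 CPM against 16.0 and 14.3 CPM, a log2 difference of -2.60 (edgeR adjusted p = 0.00430, SE 0.49). Its gates were apart in both tissues, and the medullary call stood without any 1 library. Gins2, a subunit of the active helicase, was at 3.51, 3.65 and 4.37 CPM against 7.05, 9.32 and 6.02 CPM in the cortex and differed by -0.96 (edgeR adjusted p = 0.0747, SE 0.32). The medullary values of Gins2 were 1.19, 1.36 and 1.72 CPM against 4.75 and 6.90 CPM, a log2 difference of -2.03 (edgeR adjusted p = 0.00304, SE 0.36). Neither tissue showed overlap for Gins2. Dbf4, the regulatory subunit of the Cdc7 kinase, was at 3.69, 1.03 and 0.585 CPM against 1.79, 4.44 and 4.45 CPM in the cortex, where GFP-positive library 1 lay above GFP-negative library 1. Medullary Dbf4 was at 1.08, 2.71 and 1.36 CPM against 7.63 and 10.96 CPM, a log2 difference of -2.43 (edgeR adjusted p = 0.0436, SE 0.75) that 6 of the 11 left-out libraries ended. Cdc6 lay between 0 and 7.85 CPM over all libraries, with cortical groups apart and medullary groups overlapping, and was not called by edgeR.

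Genes of nucleotide supply and the polymerase clamp differed among themselves. Rrm2, the regulated subunit of ribonucleotide reductase, was at 8.41, 1.97 and 1.13 CPM against 52.8, 46.7 and 13.6 CPM in the cortex, a log2 difference of -3.30 (edgeR adjusted p = 0.0225, SE 0.81). In the medulla its values were 4.28, 2.71 and 9.76 CPM against 6.72 and 4.83 CPM and overlapped, at a log2 difference of -0.06 (edgeR adjusted p = 0.975, SE 0.84) whose sign changed with total-count scaling. Rrm1, the other subunit, with the promoter shown above, was at 27.2, 27.0 and 32.5 CPM against 52.7, 44.3 and 53.8 CPM in the cortex. Its cortical groups were apart, at a log2 difference of -0.80 (edgeR adjusted p = 0.0267, SE 0.20). Medullary Rrm1 overlapped, at 30.6, 46.2 and 30.6 CPM against 51.4 and 37.5 CPM. Pcna, the clamp, was the highest replication gene per kilobase in GFP-positive cells, at a mean of 17.6 CPM in the cortex and 17.3 CPM in the medulla. Its cortical values of 53.7, 38.5 and 34.3 CPM and 43.2, 46.6 and 48.6 CPM overlapped, and the log2 difference was -0.13 (edgeR adjusted p = 0.700, SE 0.19) and 0.0003 without GFP-positive library 3. In the medulla Pcna was at 43.1, 46.6 and 34.5 CPM against 59.6 and 69.3 CPM, with groups apart at a log2 difference of -0.64 (edgeR adjusted p = 0.0529, SE 0.21). Tyms, which makes thymidylate, lay between 8.50 and 24.4 CPM over all libraries, with cortical groups apart, medullary groups overlapping and no call by edgeR. Pcna, Tyms and Ccnb1 have processed pseudogenes in the mouse genome, and how reads shared with them were counted is not given in the sources used here.

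Mitotic genes had the largest median difference between gates of the 3 role groups, -2.69 on the log2 scale in the cortex and -3.72 in the medulla. Cdk1, the mitotic kinase (ENSMUSG00000019942, chromosome 10, 69336635 to 69352938, mm10), with CHR letters in the promoter shown, was at 2.00, 0.901 and 1.80 CPM in cortical GFP-positive libraries against 22.4, 22.5 and 8.46 CPM in GFP-negative ones. Medullary Cdk1 was at 1.03, 1.29 and 1.88 CPM against 10.6 and 14.3 CPM. It was far apart in both tissues, with log2 differences of -3.50 (edgeR adjusted p = 0.00125, SE 0.48) and -3.15 (edgeR adjusted p = 0.00169, SE 0.50), and cortical GFP-negative library 3 was the lowest of its group. Ccna2, the cyclin of S phase and G2, was at 2.58, 1.07 and 0.225 CPM against 13.7, 13.0 and 3.74 CPM in the cortex, a log2 difference of -2.96 (edgeR adjusted p = 0.0329, SE 0.80). The medullary values of Ccna2, 1.03, 2.15 and 1.83 CPM against 2.99 and 5.72 CPM, did not overlap but gave -1.38 (edgeR adjusted p = 0.270, SE 0.82). Ccnb1, a mitotic cyclin, had a count in 1 of 3 cortical GFP-positive libraries, at 0.356, 0 and 0 CPM against 2.43, 1.25 and 0.118 CPM in GFP-negative cells, and the groups overlapped. In the medulla it was at 0, 0.139 and 0 CPM against 1.497 and 8.60 CPM, a log2 difference of -6.43 (edgeR adjusted p = 0.0331, SE 1.86) in which GFP-negative library 2 stood above library 1. It was not called without GFP-positive library 1 or 3 or GFP-negative library 2, at edgeR adjusted p of up to 0.177.

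Mki67, the gene of the proliferation antigen Ki-67, and Top2a, the topoisomerase that untangles chromosomes, both carry CHR letters in the stretches shown. Mki67 was at 3.47, 0 and 0 CPM against 10.3, 14.2 and 0.905 CPM in the cortex. GFP-positive library 1 lay above GFP-negative library 3 there, and the difference was not called (log2 -2.87 (edgeR adjusted p = 0.238, SE 1.51)). Medullary Mki67 was at 0.103, 0 and 0.0522 CPM against 25.6 and 9.86 CPM. The 3 GFP-positive libraries held 3 counts in all and the 2 GFP-negative libraries 945, 408-fold lower, with exact 95% limits of 139 and 1980 that cover counting error only (edgeR adjusted p = 0.0206). Without GFP-positive library 1, 2 or 3 or GFP-negative library 1 the call on Mki67 was lost, at edgeR adjusted p of up to 0.0641. Top2a was at 5.16, 0.300 and 0.0450 CPM against 24.2, 13.8 and 3.54 CPM in the cortex, with GFP-positive library 1 above GFP-negative library 3. In the medulla Top2a was at 0.103, 0.938 and 2.24 CPM against 18.1 and 12.4 CPM, and the groups were apart at a log2 difference of -3.80 (edgeR adjusted p = 0.0897, SE 1.45). With all 11 libraries edgeR called Top2a in no comparison, but 1 of 18 alternatives called it lower between gates in the cortex and 4 of 18 in the medulla, with adjusted p from 0.0201 to 0.373 and from 0.0188 to 0.541.

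Genes of the chromosomal passenger complex and of the centromere were among those called. Aurkb, the kinase of that complex, was at 0.801, 0.172 and 0.0900 CPM against 7.99, 10.1 and 1.81 CPM in the cortex, a log2 difference of -4.21 (edgeR adjusted p = 0.0204, SE 1.01). Medullary Aurkb was at 0, 0.174 and 0.0522 CPM against 7.74 and 3.81 CPM, a log2 difference of -6.04 (edgeR adjusted p = 0.00524, SE 1.19). Its gates did not overlap in either tissue. Birc5, which encodes survivin of the same complex, was at 2.14, 0.730 and 0.630 CPM against 16.0, 12.1 and 3.03 CPM in the cortex (log2 difference -3.15 (edgeR adjusted p = 0.0383, SE 0.88)). Birc5 in the medulla was at 1.75, 0.452 and 0.157 CPM against 6.24 and 7.47 CPM, a log2 difference of -3.13 (edgeR adjusted p = 0.0382, SE 0.94). The gates of Birc5 were apart in both tissues as well, and edgeR adjusted p rose to at most 0.119 in the cortex and 0.115 in the medulla when 1 library was left out. Cenpa, the histone variant of centromeres, was at 6.63, 6.87 and 5.94 CPM against 9.89, 7.34 and 5.04 CPM in the cortex, and these values overlapped. Medullary Cenpa was at 1.34, 4.00 and 3.97 CPM against 11.8 and 34.9 CPM, a log2 difference of -2.90 (edgeR adjusted p = 0.00419, SE 0.55), with groups apart, and it was not called without GFP-negative library 2 (edgeR adjusted p = 0.0527). Cenpf, a kinetochore protein, was at 4.72, 0.386 and 0.360 CPM against 7.16, 5.58 and 3.90 CPM in the cortex, where GFP-positive library 1 lay within the GFP-negative range. In the medulla Cenpf was at 0.0516, 0.208 and 0.939 CPM against 7.19 and 4.46 CPM, a log2 difference of -3.87 (edgeR adjusted p = 0.0455, SE 1.21) that 7 of 11 left-out libraries ended.

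Kif11, a spindle motor, was at 2.62, 1.33 and 0.765 CPM against 7.28, 5.80 and 2.28 CPM in the cortex, with overlap between GFP-positive library 1 and GFP-negative library 3. Kif11 in the medulla was at 0, 0.243 and 0.104 CPM against 7.19 and 1.22 CPM, a log2 difference of -5.03 (edgeR adjusted p = 0.00899, SE 1.10) with groups apart, lost without GFP-negative library 1 (edgeR adjusted p = 0.0813). Ube2c and Cdc20 serve the anaphase-promoting complex, the ligase that ends mitosis. Ube2c was at 1.78, 0.859 and 0.765 CPM against 11.2, 8.59 and 2.20 CPM in the cortex, where groups were apart at a log2 difference of -2.69 (edgeR adjusted p = 0.0700, SE 0.89). Medullary Ube2c was at 0.258, 0 and 0 CPM against 7.38 and 11.6 CPM, a log2 difference of -6.82 (edgeR adjusted p = 0.00270, SE 1.181). That call stood whichever library was left out. Cdc20 was at 3.34, 0.215 and 1.49 CPM against 4.93, 3.93 and 2.68 CPM in the cortex, and its groups overlapped. In the medulla Cdc20 was at 0, 0.243 and 0.574 CPM against 2.56 and 10.7 CPM, a log2 difference of -4.59 (edgeR adjusted p = 0.0248, SE 1.24) lost without GFP-positive library 2 or GFP-negative library 2, at edgeR adjusted p of up to 0.161. The remaining 7 mitotic genes (Ccnb2, Aurka, Plk1, Bub1, Bub1b, Cenpe and Tpx2) were called in no comparison by edgeR with all 11 libraries. Of the 19 mitotic genes edgeR called 4 lower in the cortex and 10 in the medulla, DESeq2 7 and 14, and limma voom 4 and 13. Over all genes edgeR called 14.7% and 21.4% in either direction, DESeq2 22.2% and 28.8%, and limma voom 16% and 25.9%. For the remaining 7, medullary groups did not overlap, and their levels over all libraries lay between 0 and 16.0 CPM. Bub1, a spindle checkpoint kinase, had no count in medullary GFP-positive libraries and 71 in GFP-negative ones, at least 30.6-fold lower with 3 counts set for the whole group. With Bub1 at that bound the medians of the lists did not move.

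**Figure D3:**
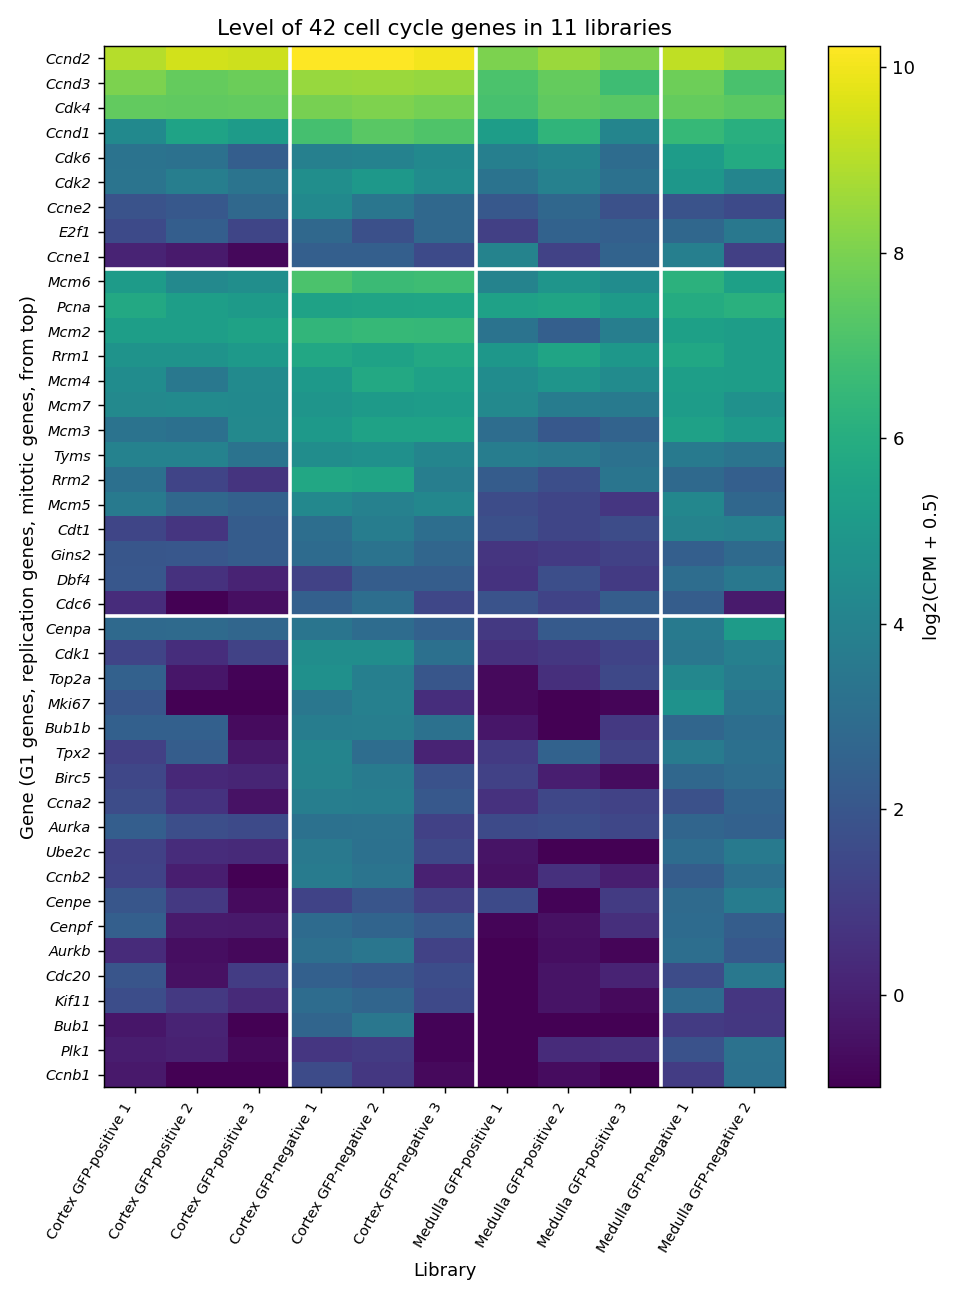
Level of each of the 42 genes, as log2(CPM + 0.5), in the 11 libraries, in blocks of G1, replication and mitotic genes from top to bottom and of the 4 groups from left to right. Within a block genes are ordered by mean CPM, which is not corrected for gene length. The mitotic block is darkest in the medullary GFP-positive libraries and in cortical GFP-positive library 3, and is darker in cortical GFP-negative library 3 than in libraries 1 and 2.

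Summed over each role group, cortical mitotic transcripts varied more between libraries of a gate than cortical replication transcripts. The 14 replication genes summed to 251, 192 and 217 CPM in cortical GFP-positive libraries and to 523, 535 and 490.1 CPM in GFP-negative ones. In the medulla they summed to 175, 195 and 167 CPM against 412 and 335 CPM. The gates were apart in both tissues. The 19 mitotic genes summed to 52.9, 27.99 and 15.2 CPM in cortical GFP-positive libraries and to 196, 173 and 50.9 CPM in GFP-negative ones, where library 3 lay below GFP-positive library 1. Medullary mitotic sums were 12.3, 19.5 and 19.9 CPM against 149 and 177 CPM. Cortical GFP-negative library 3, from the younger mice, thus had a mitotic sum in the GFP-positive range and a replication sum in the GFP-negative range. All 19 mitotic genes had a count in each GFP-negative library. In GFP-positive libraries 19, 17 and 15 had a count in the cortex and 13, 15 and 16 in the medulla.

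The ratio of replication to mitotic transcripts was higher in GFP-positive cells of the medulla. It was 14.2, 9.99 and 8.39 there against 2.76 and 1.89 in GFP-negative libraries, without overlap, and the mean log2 ratio was 3.41 ± 0.39 (SD, n = 3) against 1.19 ± 0.39 (SD, n = 2). In the cortex the ratio was 4.74, 6.88 and 14.3 against 2.66, 3.10 and 9.63, with overlap, and the mean log2 ratio was 2.95 ± 0.81 (SD, n = 3) against 2.10 ± 1.01 (SD, n = 3). Both cortical maxima came from library 3, the one from younger mice. As these ratios are scores over chosen genes, they carry no test. Per kilobase of gene length the mean log2 ratios were 2.84 and 1.92 in the cortex and 3.35 and 1.20 in the medulla, GFP-positive first. Taken gene by gene as a difference of mean log2(CPM + 0.5), the medullary GFP-positive value was 2.88. The other groups are not given under this measure, so 2.88 alone cannot show whether the gap between gates held.

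**Figure D4:**
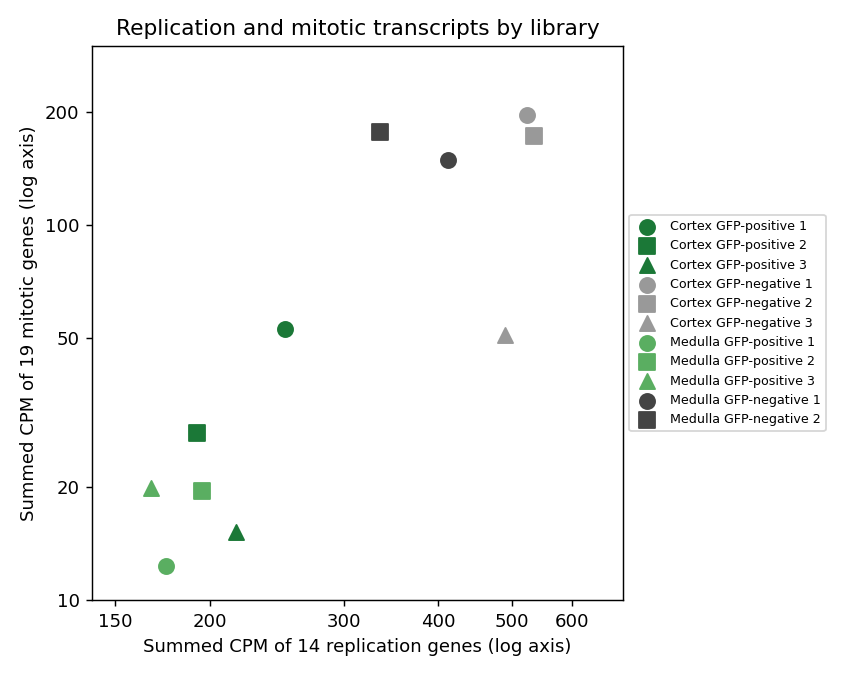
Summed CPM of the 14 replication genes (log axis) against summed CPM of the 19 mitotic genes (log axis), with 1 point per library, coloured by group and shaped by library number. GFP-positive libraries lie at replication sums of 167 to 251 CPM and GFP-negative ones at 335 to 535 CPM, and cortical GFP-negative library 3 lies apart at a mitotic sum of 50.9 CPM.

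Split by age, most of the 42 genes were lower in GFP-positive cells. Among libraries from mice of 3.5 months, 2 against 2, the log2 difference was below 0 for 41 of 42 genes and for 15 of the 15 called. Among those from mice of 2.5 months, 1 against 1, it was below 0 for 38 of 42 and again for 15 of 15. In the medulla only the older mice gave both gates, 1 library against 2, with 38 of 42 below 0 and 21 of 21 called genes. These values have no test of their own. For every gene called lower, all GFP-positive libraries lay below all GFP-negative libraries of that tissue. The direction of the called genes within an age was thus fixed in advance and says nothing of age.

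Between tissues 7 of the 42 genes (16.7%) were called in GFP-positive cells and 5 (11.9%) in GFP-negative cells, against 15.5% and 18.6% of all genes in either direction. In GFP-positive cells 6 were called higher in the cortex (Ccnd2, Mcm2, Mcm5, Gins2, Kif11 and Ube2c) and 1 lower (Ccne1), against 6.04% and 9.45% of all genes. From the values above, Ccnd2 differed by 1.06 (edgeR adjusted p = 0.00432, SE 0.18) and Mcm2 by 2.14 (edgeR adjusted p = 0.00146, SE 0.30) on the log2 scale, and these were the only 2 of the 7 calls that stood whichever of the 11 libraries was left out. For Mcm5 the difference was 1.97 (edgeR adjusted p = 0.0192, SE 0.47) and for Gins2 1.43 (edgeR adjusted p = 0.0168, SE 0.33). Kif11 differed by 3.62 (edgeR adjusted p = 0.0388, SE 1.02) and Ube2c by 3.76 (edgeR adjusted p = 0.0431, SE 1.10). Ccne1 was lower in every cortical than in every medullary GFP-positive library, by -4.43 (edgeR adjusted p = 0.0185, SE 1.05). The count was 4 without cortical GFP-positive library 1 or 3 or without medullary GFP-positive library 2 or 3. In these fits 10.1%, 10.4%, 9.78% and 14% of all genes were called in either direction. In GFP-negative cells 4 genes were called higher in the cortex (Ccnd2, Ccnd3, Ccne2 and Mcm2) and 1 lower (Cdk6), against 8.06% and 10.6% of all genes. The log2 differences were 1.16 (edgeR adjusted p = 0.00570, SE 0.21) for Ccnd2 and 1.07 (edgeR adjusted p = 0.0245, SE 0.28) for Ccnd3. Those of Ccne2 and Mcm2 were 2.10 (edgeR adjusted p = 0.0297, SE 0.57) and 1.16 (edgeR adjusted p = 0.0333, SE 0.32), and that of Cdk6 was -1.53 (edgeR adjusted p = 0.0217, SE 0.39). No mitotic gene was called between tissues in GFP-negative cells by edgeR, with 1 of 19 at an unadjusted p under 0.05, and DESeq2 and limma voom each called 1 lower. None of these 5 calls stood under every left-out library: 0 members were called without medullary GFP-negative library 2, 1 was called with either library 1 or 2 of the cortical GFP-negative group left out, and 3 with its library 3 left out. Without cortical GFP-negative library 1, 2 or 3, 10.3%, 12.7% and 13.6% of all genes were called in either direction. These tissue comparisons share libraries with those between gates.

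The size of the difference between gates was not shown to depend on the tissue. By edgeR 0 of the 42 interaction terms of gate and tissue were called, against 1.61% of all genes in either direction, with 9 at an unadjusted p under 0.05. DESeq2 called 3 (Ube2c, Cenpa and Rrm2), where it called 8.26% of all genes, and limma voom 0, where it called 1.48%. Of the members called between gates, 9 were called in both tissues, 6 only in the cortex and 12 only in the medulla, and a call in 1 tissue alone is therefore not a difference between tissues. Cenpa had the smallest interaction p of the 42, at a log2 term of 2.71 (edgeR adjusted p = 0.0979, SE 0.73), and it was called without medullary GFP-negative library 1 at 3.29 (edgeR adjusted p = 0.0479).

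Of 39 further replication genes, 5 were called lower in cortical GFP-positive cells and 6 in medullary ones, and 0 higher. These are 12.8% and 15.4% of the list, against 7.59% and 11.1% of all genes called lower. The median log2 difference was -0.59 and -0.51, against 0.03 and 0.09 over all genes. At an unadjusted p under 0.05, 0 and 1 were higher, DESeq2 called 0 and 1 higher, and limma voom 0 and 1. Those with the smallest adjusted p in the cortex were Rpa1, at a log2 difference of -0.83 (edgeR adjusted p = 0.00598, SE 0.15), Pold3, at -1.06 (edgeR adjusted p = 0.00924, SE 0.22), Rpa2, at -1.21 (edgeR adjusted p = 0.0102, SE 0.25), and Rfc2, at -0.83 (edgeR adjusted p = 0.0384, SE 0.23). They encode subunits of the single-strand binding complex, of polymerase delta and of the clamp loader. In the medulla they were Slbp, at -1.19 (edgeR adjusted p = 0.00389, SE 0.22), Pola2, at -1.23 (edgeR adjusted p = 0.00518, SE 0.24), Pold1, at -1.87 (edgeR adjusted p = 0.00597, SE 0.38), and Rfc2, at -0.91 (edgeR adjusted p = 0.0297, SE 0.26). Slbp binds histone messages, and Pola2 and Pold1 belong to polymerases alpha and delta. Of 46 further mitotic genes, 8 were lower in the cortex and 11 in the medulla, and 0 higher by edgeR, DESeq2 and limma voom alike, with 0 higher at an unadjusted p under 0.05 in both. The shares called lower were 17.4% and 23.9%, and the median log2 differences were -1.42 and -1.65. Cks2, which binds Cdk1, was at 2.80, 2.02 and 1.22 CPM against 9.89, 10.5 and 8.03 CPM in the cortex and at 3.35, 2.29 and 1.10 CPM against 18.0 and 20.2 CPM in the medulla. It did not overlap, at -2.23 (edgeR adjusted p = 0.00702, SE 0.43) and -3.08 (edgeR adjusted p = 0.00134, SE 0.47). In the cortex the others with the smallest adjusted p were Ttk, a spindle checkpoint kinase, Anln, which acts in cytokinesis, and Bub3, a checkpoint protein. Ttk had 1 count over the cortical GFP-positive libraries against 174, 149-fold lower, where counting error alone allows 26.4 to 5915 (edgeR adjusted p = 0.00353). Anln differed by -3.17 (edgeR adjusted p = 0.0207, SE 0.77) and Bub3 by -0.45 (edgeR adjusted p = 0.0230, SE 0.11) on the log2 scale. Medullary Anln had the opposite order and no call, at 0.88 (edgeR adjusted p = 0.473, SE 0.78). In the medulla the kinetochore gene Ndc80 had no count in GFP-positive libraries against 229, at least 98.8-fold lower (edgeR adjusted p = 0.00421). Cdca3 had 3 counts against 236, 102-fold lower with counting limits of 34.4 and 497 (edgeR adjusted p = 0.00813). Cdca5, which encodes sororin of sister chromatid cohesion, had 1 count against 231, 299-fold lower with counting limits of 53.1 and 11859 (edgeR adjusted p = 0.00820).

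The upstream regulators were more mixed. Cdkn1a, which encodes the inhibitor p21, was at 13.0, 26.0 and 18.2 CPM against 69.1, 65.8 and 37.5 CPM in the cortex and at 40.8, 66.5 and 25.9 CPM against 106 and 165 CPM in the medulla. This inhibitor of cyclin-dependent kinases was lower in GFP-positive cells without overlap, at log2 differences of -1.59 (edgeR adjusted p = 0.0220, SE 0.39) and -1.61 (edgeR adjusted p = 0.0209, SE 0.42). It was the 1 of 7 inhibitors called in the cortex (14.3%), where 7.59% of all genes were called lower. In the medulla 2 of 7 were lower (28.6%) and 1 higher (14.3%), against 11.1% and 10.2% of all genes. The second lower one, Cdkn2a, had no count in medullary GFP-positive libraries and 24 counts in 1 of the 2 GFP-negative libraries, at least 10.4-fold lower when 3 counts are set for the whole group (edgeR adjusted p = 0.0488). Cdkn2d, the higher one, was at 42.4, 38.1 and 34.0 CPM against 24.1 and 17.5 CPM, a log2 difference of 0.87 (edgeR adjusted p = 0.0332, SE 0.25). Among 12 pocket proteins and E2F factors, Tfdp2, a dimer partner of E2F factors, was lower in both tissues, at -0.92 (edgeR adjusted p = 0.0116, SE 0.20) and -1.37 (edgeR adjusted p = 0.00161, SE 0.22). E2f2 was lower in the medulla, at -3.48 (edgeR adjusted p = 0.0172, SE 0.87). E2f3, an activator of replication genes, was higher in cortical GFP-positive cells, at 7.07, 5.92 and 3.06 CPM against 1.42, 1.25 and 1.89 CPM, a log2 difference of 1.82 (edgeR adjusted p = 0.0152, SE 0.41). Medullary E2f3 had the opposite order, 2.32, 3.40 and 2.09 CPM against 6.06 and 7.06 CPM, at -1.33 (edgeR adjusted p = 0.0550, SE 0.44). Of 7 genes of the MuvB core and its mitotic partners, which act at CHR elements, edgeR called 0 in any of the 5 comparisons, with 2, 1, 0, 1 and 0 at an unadjusted p under 0.05. DESeq2 and limma voom each called 1 lower in the cortical gate comparison and 0 in the others.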

How the data were processed

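The 11 libraries were made from poly(A) RNA with 17 cycles of PCR, per the labels' protocols. Without molecular identifiers, intervals cover counting error only. Without strand information, overlapping and antisense genes cannot be told apart. The authors deposited raw counts of reads per gene, with each gene's length. Named in the submitters' processing notes, with no roles given, are GSNAP, bcl2fastq 2.19.1, DESeq, featureCounts 1.6.0, DESeq2 1.18.1 and the build mm10. Log2 fold changes and p-values from the authors' deposited comparisons are printed only where credited, and gene symbols were read from the same tables. Another 92 spike-in sequences, with 10 counts in all, were left out.

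Tissue and gate in the titles define the 4 groups. Levels are CPM on TMM-scaled library sizes. After filterByExpr by group, edgeR 4.0.16 (R 4.3.3; glmQLFit, glmQLFTest) was fitted to all 11 libraries with 4 group means, leaving 7 residual degrees of freedom at a common biological coefficient of variation of 0.479. In each of 5 comparisons the p-values of 20893 genes were adjusted by the Benjamini-Hochberg method, and called means an adjusted p under 0.05. The SE of a log2 difference is its absolute size over the root of edgeR's F. A fold against a group without counts is a bound that sets 3 counts for that group, and a fold against 1 to 3 counts has an exact 95% interval. The fit was also run on simulated data, but the outcome is not given here. No pair of libraries within a group was 1 library deposited again: their chi-square per degree of freedom was 20.6 to 69.8. This says nothing of whether they share animals.

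Members, further gene lists, comparisons and alternatives were chosen with earlier results of these data known. The 32 members named with values per library are those called in at least 1 comparison and the 3 with the highest mean CPM in each role group. From each further list at most 4 called genes per comparison are named, by smallest adjusted p. Alternatives were DESeq2 1.42.0, limma 3.58.1 with voom, total-count scaling, no filter, a replicate block, age as a covariate, fits of the compared groups alone, and leaving out each library. Promoter windows are those of RefSeq on GRCm38.p6.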

Additional observations from a re-analysis of the deposited data

Results flagged for a closer look

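E2f3, which is not among the 42 genes but belongs to the list of pocket proteins and E2F factors, differed between tissues in its difference between gates. Its interaction term of gate and tissue was 3.14 on the log2 scale (SE 0.60, edgeR adjusted p = 0.0352), with GFP-positive above GFP-negative cells in all cortical libraries and below them in all medullary libraries. The adjusted p ranged from 0.000131 with DESeq2 to 0.108 without medullary GFP-negative library 2, and 10 of 17 alternatives ended the call while all 17 kept the sign. Levels were low, at 1.25 to 7.07 CPM over all libraries.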

How the results depend on the processing

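The number of the 42 genes called lower between gates, 15 in the cortex and 21 in the medulla, ranged with 1 library left out from 6 to 18 and from 11 to 23, and 0 were called higher under any of the 18 alternatives. With 1 library left out, the share of all genes called in either direction between cortical gates ranged from 9.44% to 15.9%. DESeq2 called 25 in the cortex, where it called 22.2% of all genes in either direction, against 14.7% by edgeR. It called 3 interaction terms, with 8.26% of all genes called, against 0 by edgeR, with 1.61%. The edgeR count of interaction terms ranged from 0 to 1 with 1 library left out. Between tissues in GFP-positive cells, edgeR made 7 calls, and DESeq2 called 8 members higher and 2 lower in the cortex. The 7 calls became 3 with limma voom and 4 with the compared groups alone, and ranged from 4 to 7 with 1 library left out. DESeq2, limma voom and the compared groups alone called 21.2%, 17.4% and 16.3% of all genes in either direction, against 15.5% by edgeR. The 5 calls in GFP-negative cells became 9 with DESeq2, 8 with total-count scaling, 10 with limma voom and 10 with the compared groups alone. Of all genes, 27.1%, 20.7%, 24.4% and 21.9% were called there in either direction. The count in GFP-negative cells was 3 with the replicate block, against 16% of all genes, and ranged from 0 to 7 with 1 library left out. The causes were not tested. The replicate block gave 16 calls between gates in the cortex, with 13.5% of all genes called, and 18 in the medulla, with 19.1%. Without the block edgeR called 14.7% and 21.4% of all genes. Libraries of different groups with the same number deviated together only weakly (r of -0.009 to 0.078 across genes), below the 0.1 set for pairing, and the main fit held no pairing. Still, 11 of 11 libraries correlated best with their own number, a hint from the data and not the design. Number 2 does not mark the same animals throughout. Medullary GFP-positive library 2 came from mice of 2.5 months and the other libraries numbered 2 from mice of 3.5 months. There the replicate block joined mice of different ages. For libraries numbered 1 or 3 these values do not settle whether the same number means the same animals.

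Of 48 calls on single genes, DESeq2 and total-count scaling ended 0, no filter 1, limma voom 5, and the block, age and the compared groups alone 9 each, and none changed sign. Among differences that were not called, medullary Ccne1 became 0.080 with total counts, 0.48 with the block and 0.76 with age, and medullary Rrm2 became 0.028, 0.28 and 0.94. With 1 library left out, medullary Ccne1 ranged from -1.10 to 2.18, with 0.44 and 0.17 between, Rrm2 from -0.73 to 0.28, with 0.10 and 0.20 between, and Ccnd3 from -0.59 to 0.17. In the cortex Pcna ranged from -0.35 to 0.0003 and Cenpa from -0.41 to 0.061. The mean log2 ratio of replication to mitotic genes in medullary GFP-positive cells moved from 3.41 to 2.88 when taken gene by gene. Total-count scaling moved the all-gene median to 0.15 between gates in the medulla, -0.10 between GFP-positive tissues and -0.19 in the interaction.

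Differences between levels below 0.104 to 0.157 CPM, the worth of 3 counts per library, were not detectable at this depth. The medullary GFP-negative group has 2 libraries, both from mice of 3.5 months, against 1 of 3 GFP-positive libraries of that age.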
